A study of Homo sapiens with 15 samples.

Results

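Histone acetyltransferases add acetyl groups to lysines of histones, the modification that histone deacetylases (HDACs) remove. The genes described here were 10 named members of this class, EP300, CREBBP, KAT2A, KAT2B, HAT1, KAT5, KAT6A, KAT6B, KAT7 and KAT8, found by symbol among the 60649 genes of the count table. The rule names genes and uses no measured value, but it was set with earlier results of these data known. All 10 members passed the filter on low counts, which left 23711 genes, and all 10 averaged 10 CPM or more (counts per 1000000 counts of the scaled library).

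The libraries were poly(A) mRNA of K562, a human line with the BCR-ABL fusion, established from chronic myeloid leukaemia. There were 15 libraries in 5 groups of 3 biological replicates, of which 1 was left untreated and 4 received martinostat at 0.15, 0.25, 0.5 or 1 µM during 24 h. Martinostat is an HDAC inhibitor, and the groups carried no other agent or genetic change by their labels. One cell line in culture was measured, so p-values cover the spread between replicates of that line.

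The enzymes fall into families that differ in their catalytic domain. EP300 (p300) and CREBBP (CBP) are paralogous coactivators that many transcription factors recruit. KAT2A (GCN5) and KAT2B (PCAF) are alternative catalytic subunits of the SAGA and ATAC coactivator complexes. HAT1, related to them by its domain, acetylates newly made histone H4 in the cytoplasm and nucleus before its deposition on DNA. The MYST family holds KAT5 (TIP60), which acts in transcription and DNA repair, the paralogs KAT6A (MOZ) and KAT6B (MORF), KAT7 (HBO1), which acts at replication origins and transcribed genes, and KAT8 (MOF), which acetylates H4 in the MSL and NSL complexes.

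Library totals ranged from 23755510 to 32805574 counts. Replicate 3 at 0.25 µM and at 0.5 µM stood apart from the other libraries of its group. Its factors of the trimmed mean of M values (TMM) were 1.28 and 1.22. Untreated libraries had TMM factors of 0.828, 0.79 and 0.784, below those of all treated libraries, which lay from 0.95 to 1.28. Among markers of the line, GATA1, TAL1, TFRC and HBG2 averaged lower at 1 µM than in untreated cells. GATA1, a factor of the erythroid lineage, averaged 262 CPM of library total in untreated cells and 19.3 at 1 µM, and TFRC, the transferrin receptor, 982 and 495. HBG1 averaged 101 and 97.2, and HBE1 stayed under 1 in all groups. Among markers of other cells, MS4A1 and CD79A stayed under 1 CPM of library total in all groups, whereas EPCAM averaged 113 in untreated cells and 21 at 1 µM, and COL1A1 3.5 and 407. CD3E averaged 0.432 untreated and at most 3.47, at 0.15 µM, and PECAM1 0.0635 untreated and at most 1.26, at 0.5 µM. In bulk RNA, fewer cells of a kind and less RNA per cell cannot be told apart, and the part of these shifts in the results below was not tested.

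The members did not move together. KAT2A and KAT8 fell with dose up to 0.5 µM, HAT1, KAT7 and KAT5 fell at every dose, KAT2B fell at the 2 higher doses, and EP300, KAT6A and KAT6B were higher at 1 µM than at 0.15 µM. CREBBP fell while its paralog EP300 did not at the higher doses. Against untreated cells, the falls of KAT2A, HAT1 and KAT7 were called under all 4 scalings at every dose. Those of KAT5 and KAT8 were called under all 4 from 0.25 µM up, and those of CREBBP and KAT2B at no dose. Over the 5 groups, 10 of 10 members differed (edgeR quasi-likelihood test, adjusted p from 6.18e-10 for KAT2A to 0.0154 for KAT6B), where 73.6% of all genes tested did. The share among genes averaging 10 CPM or more was not computed for this test or for comparisons between doses.

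Scaling bears on every comparison with untreated cells. After TMM scaling the median log2 fold change of all genes tested was 0.28, 0.32, 0.34 and 0.32 in order of dose, and that of the genes averaging 10 CPM or more was -0.28, -0.40, -0.37 and -0.39. The median of the members was -0.53, -0.84, -0.90 and -0.91. Scaling by library totals placed the median of all genes at 0.64, 0.85, 0.72 and 0.67, and that of the members at -0.17, -0.32, -0.50 and -0.55. Values below are TMM-scaled.

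**Figure D1:**
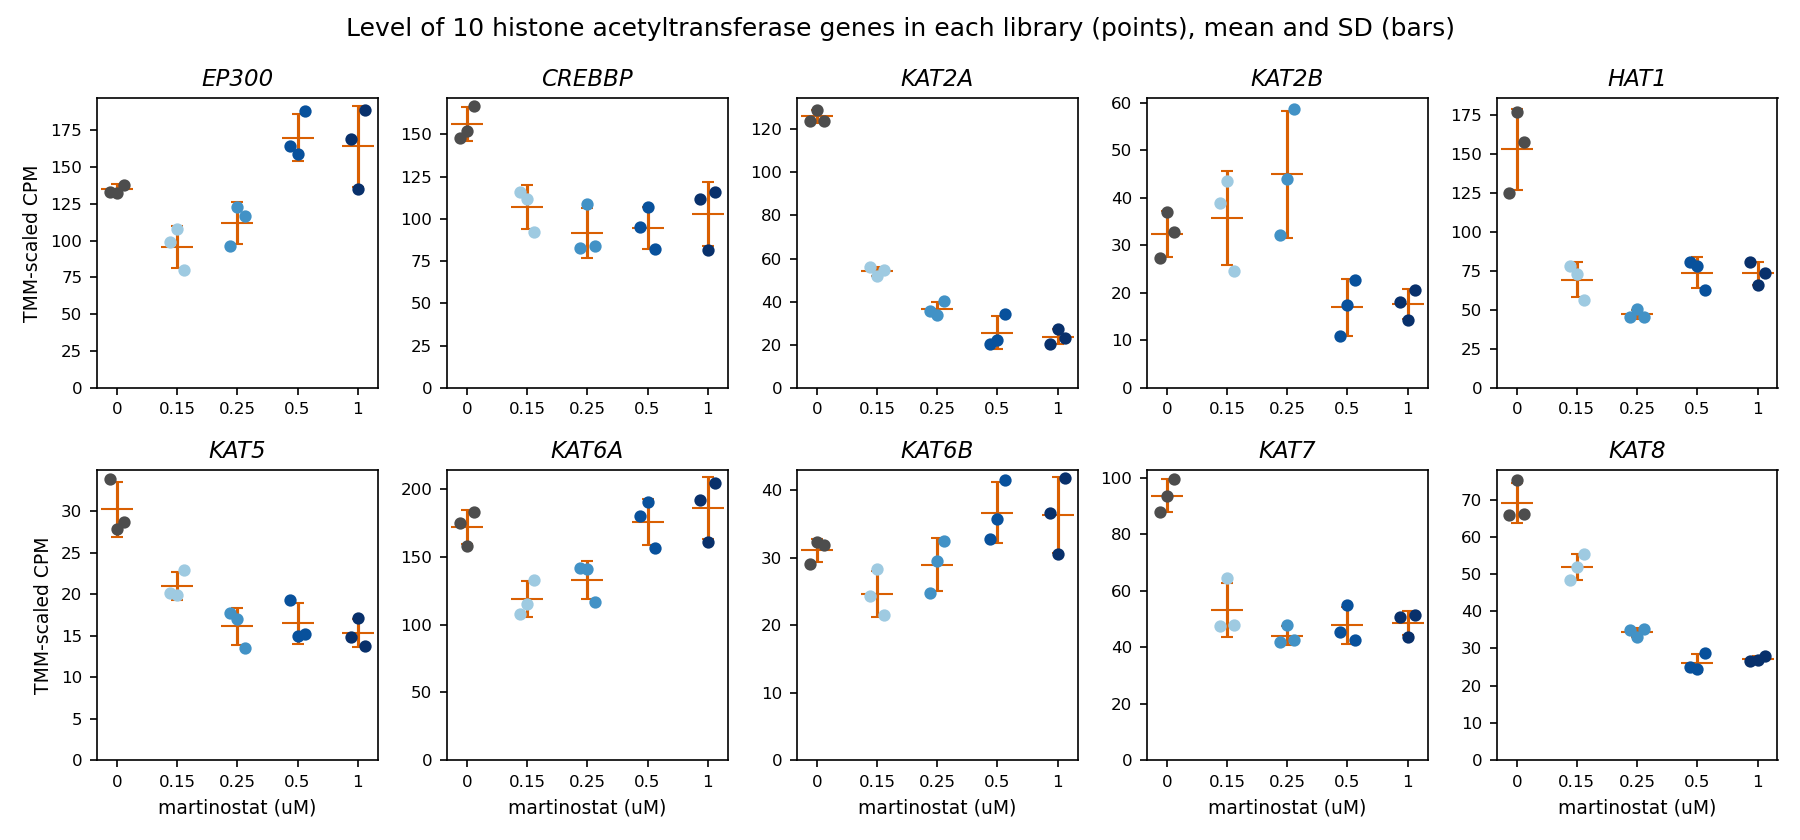
TMM-scaled CPM (linear axis from 0) of each member in each of 15 libraries, by martinostat dose in µM; points are libraries, orange bars the mean and SD of 3. KAT2A descends from 124 to 129 CPM in untreated libraries to 20.3 to 27.3 CPM at 1 µM, whereas EP300 dips at 0.15 µM and stands at 135 to 189 CPM at 1 µM.

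At 0.15 µM, 8 of 10 members fell and 0 rose, against 19.4% lower and 31.9% higher among all genes tested. Of genes averaging 10 CPM or more, the range in which the members lie, 40.2% were lower and 21.1% higher. Under library totals, or TMM on genes of at least 10 CPM, the count of members that fell at 0.15 µM was 3, and HAT1, KAT2A and KAT7 were called under all 4 scalings. At 0.25 µM, 7 members fell and 0 rose, against 24.8% lower and 37.4% higher of all genes, and 48.7% and 22.0% of genes of at least 10 CPM.

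At 0.5 µM, 7 members fell and 0 rose, against 27.6% lower and 39.4% higher of all genes, and 48.7% and 26.6% of genes of at least 10 CPM. At 1 µM, 7 members fell and 0 rose, against 27.5% lower and 38.8% higher of all genes, and 48.4% and 26.5% of genes of at least 10 CPM. HAT1, KAT2A, KAT5, KAT7 and KAT8 were lower under all 4 scalings at each of the 3 higher doses. EP300, KAT6A and KAT6B, not called at 0.5 or 1 µM here, were higher at both doses under library totals and under TMM on genes of at least 10 CPM.

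**Figure D2:**
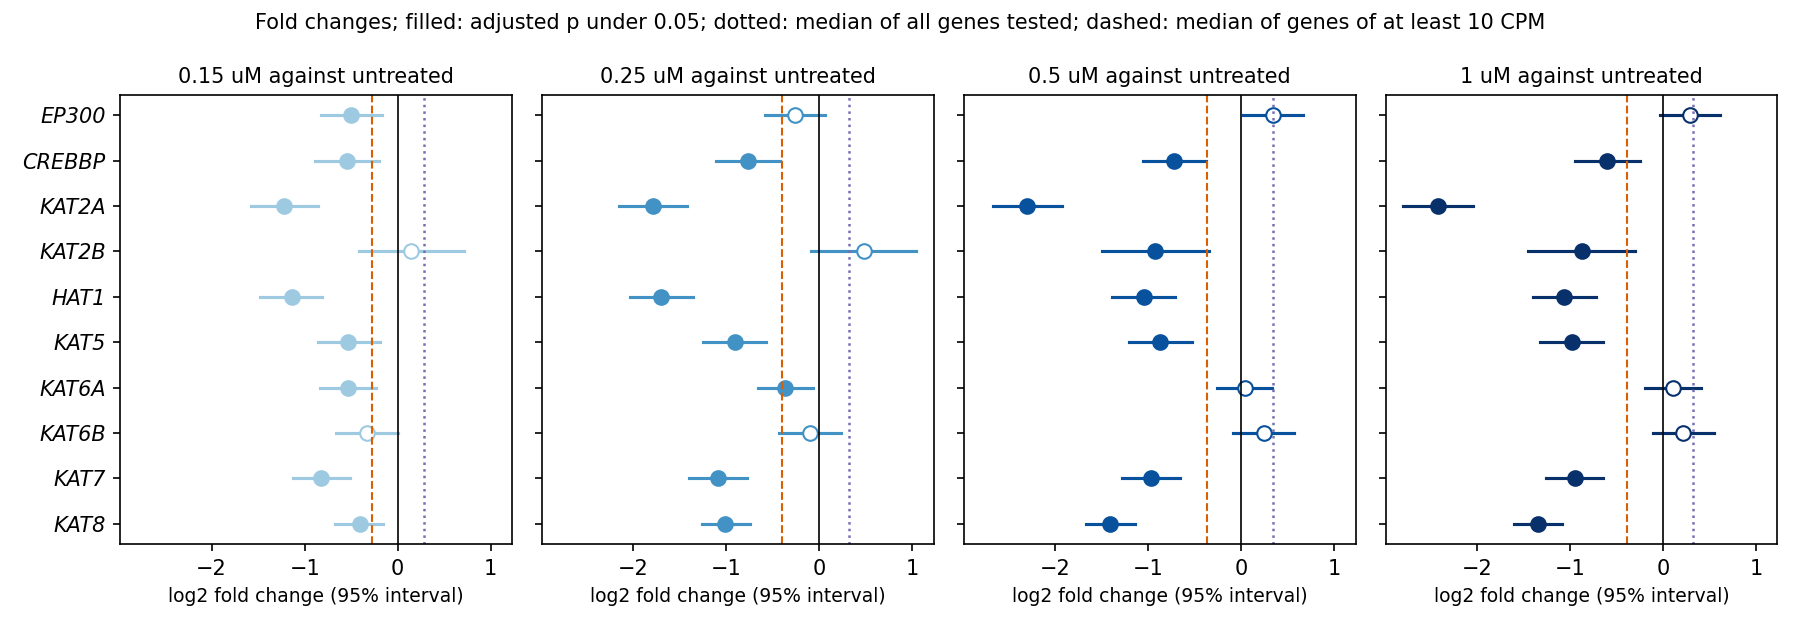
Log2 fold change of each member against untreated cells (x axis) with its 95% interval, 1 panel a dose; filled points have an adjusted p under 0.05 (edgeR), the dotted line is the median of all genes tested and the dashed line that of genes of at least 10 CPM. At 1 µM KAT2A lies at -2.42 and KAT8 at -1.34, left of both medians, and EP300, KAT6A and KAT6B lie between 0.11 and 0.29.

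Between neighbouring doses, fewer members changed. From 0.15 to 0.25 µM, KAT2A, KAT8 and HAT1 fell and 0 members rose, against 7.32% lower and 4.96% higher of all genes tested. The count was 0 under library totals and 1, KAT8, under the other 2 scalings, and leaving out any 1 of the 6 libraries of these groups brought it to 1, or to 2 in the case of replicate 3 at 0.15 µM.

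From 0.25 to 0.5 µM, KAT2A, KAT2B and KAT8 fell and EP300, HAT1 and KAT6A rose, against 16.0% lower and 14.4% higher of all genes tested. KAT2B, KAT8 and HAT1 kept these calls under all 4 scalings. Without replicate 3 at 0.25 µM, or replicate 1 or 2 at 0.5 µM, 1 member, KAT2B, fell in this step. From 0.5 to 1 µM, 0 members and 0% of all genes were called by edgeR. At an unadjusted p under 0.05, 0 members and 372 genes differed there, and DESeq2 called 0 members and 0 genes.

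Across the whole range, 1 µM against 0.15 µM, KAT2A, KAT2B, KAT5 and KAT8 fell and EP300, KAT6A and KAT6B rose, against 23.1% lower and 21.5% higher of all genes tested. Of these calls, all but that of KAT5 held under all 4 scalings. The all-gene median of this comparison was 0.02 here, and 0.14 at most under another scaling.

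KAT2A showed the largest fall of the 10 members, 5.34-fold at 1 µM. Its 3 untreated libraries held 124, 129 and 124 CPM, and those at 0.15 µM held 56, 52 and 54.5 CPM. At 0.25 µM the libraries held 35.5, 33.8 and 40.1 CPM, at 0.5 µM 20.1, 22 and 34.3 CPM, and at 1 µM 20.3, 27.3 and 23.2 CPM. No treated library reached the untreated range, and at 0.5 µM replicate 3 stood above the other 2 libraries. The log2 fold change was -1.22 ± 0.17 (SE), -1.79 ± 0.17, -2.30 ± 0.18 and -2.42 ± 0.18 in order of dose, with adjusted p of 9.43e-06, 5.86e-08, 1.5e-09 and 8.14e-10. Exons of another gene on the same strand cover 10.7% of the exon bases of KAT2A. Its counts, and its ratio to KAT2B, rest on the remainder where shared stretches were not counted.

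The step from 0.15 to 0.25 µM lowered KAT2A by a log2 fold change of -0.57 ± 0.17 (adjusted p = 0.0346), a call that was lost when any 1 library of the 2 groups was left out. The following step was -0.51 ± 0.17 (adjusted p = 0.0288), with libraries of the 2 doses overlapping. Its call was lost in 5 of 24 alternatives. These were TMM on genes of at least 10 CPM, fits of 2 groups and 3 fits without 1 library. Those libraries were replicate 3 at 0.25 µM and replicates 1 and 2 at 0.5 µM. Without replicate 3 of both 0.25 and 0.5 µM, a choice made after the data were seen, the count of members that fell in that step was still 3.

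KAT2B, the paralog of KAT2A in SAGA and ATAC, followed another course. Untreated libraries held 27.3, 36.9 and 32.7 CPM, those at 0.15 µM 38.8, 43.5 and 24.6 CPM, and those at 0.25 µM 32.1, 43.9 and 58.6 CPM. At 0.5 µM the values were 10.8, 17.4 and 22.6 CPM, and at 1 µM 18.1, 14.3 and 20.5 CPM. The 2 lower doses overlapped the untreated range and the 2 higher doses lay below it.

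KAT2B stood at a log2 fold change of 0.14 ± 0.27 at 0.15 µM (adjusted p = 0.686) and 0.48 ± 0.27 at 0.25 µM (adjusted p = 0.134). Neither passed the test, and the second passed it in 6 of 24 alternatives, 1 of them the fit without replicate 1 at 0.25 µM. It fell at 0.5 µM, -0.93 ± 0.27 (adjusted p = 0.00652), and at 1 µM, -0.87 ± 0.27 (adjusted p = 0.00949). Both calls were lost under library totals, under TMM on genes of at least 10 CPM and with at least 10 counts in every library. The drop lay between 0.25 and 0.5 µM, 2.64-fold (log2 -1.40 ± 0.27, adjusted p = 0.000846), and was called under all 24 alternatives that were run.

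The ratio of the 2 paralogs within a library does not depend on scaling. KAT2B counts per kb of exon were 0.185 of those of KAT2A in untreated cells (mean log2 ratio -2.44 ± 0.19, SD, n = 3) and 0.868 of them at 0.25 µM (-0.20 ± 0.36). The log2 ratio was higher than untreated by 1.33, 2.23, 1.36 and 1.55 at the 4 doses, with no overlap of libraries at any dose. Each two-sided exact permutation test gave p = 0.1, the smallest that 3 against 3 allows, and 0.171 adjusted over the 12 ratio tests.

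The sequences just before the start sites of these 2 paralogs are shown because the genes differ in course. They are the 250 bases before the RefSeq start (GRCh38.p14, the assembly also known as hg38), lie outside annotated exons and are written 5′ to 3′ along the gene. Capitals mark the GC box GGGCGG on either strand. The KAT2A sequence is chr17:42121368-42121617, minus strand, and the KAT2B sequence is chr3:20040196-20040445, plus strand.
KAT2A: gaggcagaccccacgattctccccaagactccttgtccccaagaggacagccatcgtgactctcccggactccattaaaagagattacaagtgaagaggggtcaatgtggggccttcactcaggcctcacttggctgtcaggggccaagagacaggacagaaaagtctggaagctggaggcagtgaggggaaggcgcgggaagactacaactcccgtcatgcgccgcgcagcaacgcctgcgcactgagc
KAT2B: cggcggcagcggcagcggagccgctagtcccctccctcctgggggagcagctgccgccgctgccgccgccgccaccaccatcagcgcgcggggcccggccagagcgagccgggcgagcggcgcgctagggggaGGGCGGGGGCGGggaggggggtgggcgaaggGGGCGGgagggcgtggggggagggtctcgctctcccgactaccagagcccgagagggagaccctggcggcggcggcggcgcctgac
KAT2A held 11 CpG dinucleotides at 58.8% GC and no GC box, and KAT2B held 33 at 80.8% GC with 3 GC boxes. The median of 35116 promoters of that length was 11 CpG and 58% GC, and 42.6% held a GC box on either strand. Neither gene matched CCAAT (32% of promoters), TATAAA (10.7%), CACGTG (6.34%) or CCGGAAG (8.52%) on either strand in these 250 bases. Of the 8 members with a RefSeq promoter in the table used, the letters CCGGAAG, a core of ETS factor sites, were matched before HAT1, KAT5 and KAT7. The GC box was matched before CREBBP, KAT2B, KAT6B and HAT1, CCAAT before KAT6B and HAT1, and CACGTG before KAT5. Of the 250 bases before EP300, KAT5, KAT7 and HAT1, 54, 250, 184 and 13 lie in annotated exons. CREBBP has 2 RefSeq promoters, with 0 and 250 such bases, and KAT6B has 3, with 250, 132 and 187. The KAT6B promoter with 250 such bases held none of these letters, and CCAAT was matched only in that with 187. A match of letters is not a bound site.

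HAT1 reached its lowest level at 0.25 µM. Untreated libraries held 125, 177 and 158 CPM, those at 0.15 µM 77.9, 73.2 and 56.5 CPM, and those at 0.25 µM 45.6, 50.4 and 45.5 CPM. At 0.5 µM the libraries held 80.7, 78.4 and 62.5 CPM and at 1 µM 81, 65.8 and 73.5 CPM. Every treated library lay below the untreated range, and those at 0.25 µM lay below all other treated libraries.

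The fall of HAT1 was 2.21-fold at 0.15 µM (log2 -1.14 ± 0.16, adjusted p = 9.25e-06), 3.25-fold at 0.25 µM (-1.70 ± 0.16, adjusted p = 4.96e-08) and 2.08-fold at 1 µM (-1.06 ± 0.16, adjusted p = 1.1e-05). Between 0.25 and 0.5 µM it rose 1.57-fold (log2 0.65 ± 0.16, adjusted p = 0.0044), a call that held under all 24 alternatives. At 1 µM against 0.15 µM the difference was 0.09 (95% interval -0.25 to 0.42), which did not pass the test.

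KAT8 was lower in each group than in the one before it up to 0.5 µM. Its libraries held 65.8, 75.3 and 66.1 CPM untreated, 48.4, 51.8 and 55.3 CPM at 0.15 µM, and 35, 33 and 35.2 CPM at 0.25 µM. At 0.5 µM they held 25, 24.4 and 28.8 CPM and at 1 µM 26.6, 27 and 28.1 CPM. The groups did not overlap up to 0.5 µM, and the 1 µM libraries lay within the range of those at 0.5 µM.

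The log2 fold change of KAT8 was -0.41 ± 0.12 at 0.15 µM (adjusted p = 0.00838). This call was lost under library totals, TMM on genes of at least 10 CPM, 2 other filters and without replicate 2 of the untreated cells. At the higher doses the values were -1.01 ± 0.12, -1.41 ± 0.12 and -1.34 ± 0.12 (adjusted p = 1.08e-06, 1.02e-08 and 1.84e-08). The step from 0.15 to 0.25 µM was -0.59 (adjusted p = 0.0041) and that from 0.25 to 0.5 µM -0.40 (adjusted p = 0.0187). The second step lost its call without replicate 3 at 0.25 µM and without replicate 1 or 2 at 0.5 µM. It was also lost with no filter on low counts and in fits of 2 groups.

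EP300 dipped at the lowest dose and stood higher at the 2 higher doses than at the 2 lower ones. Untreated libraries held 133, 132 and 138 CPM, those at 0.15 µM 98.8, 108 and 79.9 CPM, and those at 0.25 µM 96.2, 123 and 117 CPM. At 0.5 µM they held 164, 159 and 188 CPM and at 1 µM 169, 135 and 189 CPM. The 3 libraries at 0.5 µM lay above the untreated range, and replicate 2 at 1 µM lay within it.

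EP300 fell at 0.15 µM by a log2 fold change of -0.50 ± 0.15 (adjusted p = 0.0116). This call was lost under library totals, under TMM on genes of at least 10 CPM, with at least 10 counts in every library and without replicate 3 at 0.15 µM. At 0.5 µM the value was 0.34 ± 0.15 (adjusted p = 0.0577) and at 1 µM 0.29 ± 0.15 (adjusted p = 0.106), short of the threshold here and past it in 9 and 7 of 24 alternatives. The fits without replicate 3 at 0.15 µM and without replicate 2 at 1 µM were among both, and that without replicate 3 at 0.25 µM among the first. Against 0.15 µM, EP300 was 1.72-fold higher at 1 µM (log2 0.78 ± 0.15, adjusted p = 0.000399) in 3 of 3 libraries, and this call held under all 24 alternatives.

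CREBBP held 148, 152 and 167 CPM in untreated libraries, 116, 112 and 91.9 CPM at 0.15 µM, and 82.5, 109 and 84 CPM at 0.25 µM. The values were 95, 107 and 82.3 CPM at 0.5 µM and 112, 81.3 and 116 CPM at 1 µM. All treated libraries lay below the untreated ones, and the doses overlapped each other. The log2 fold change was -0.54, -0.77, -0.72 and -0.60 at the 4 doses (SE 0.16 each, adjusted p = 0.00905, 0.00049, 0.000733 and 0.00342). Under library totals only the value at 0.5 µM was called (-0.35, adjusted p = 0.0481), and under TMM on genes of at least 10 CPM only that at 0.25 µM (-0.35, adjusted p = 0.0425).

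Within libraries, CREBBP counts per kb of exon were 0.874 of those of EP300 in untreated cells and 0.473 of them at 1 µM. The log2 ratio differed from untreated by -0.04 at 0.15 µM, where the libraries overlapped (exact permutation p = 0.6). It differed by -0.50, -1.06 and -0.89 at the 3 higher doses, with no overlap (exact permutation p = 0.1 each, 0.171 adjusted). This drop needs no scaling between libraries.

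**Figure D3:**
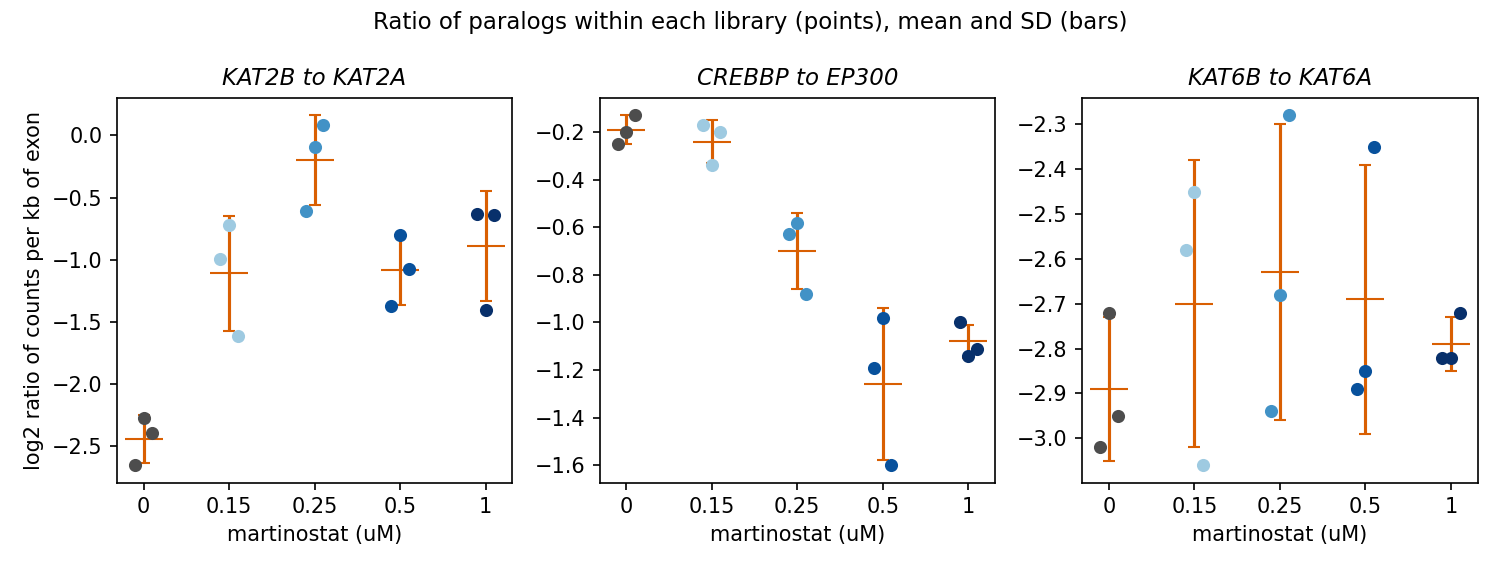
Log2 ratio of counts per kb of exon between paralogs in each library (y axis, a separate range in each panel), by martinostat dose in µM; points are libraries, orange bars the mean and SD of 3. KAT2B to KAT2A lies at -2.44 untreated and -0.20 at 0.25 µM, CREBBP to EP300 descends from -0.19 to -1.08 at 1 µM, and KAT6B to KAT6A overlaps the untreated libraries at every dose.

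KAT6A and KAT6B, the exchangeable catalytic subunits of the MOZ/MORF complexes, kept their ratio within the spread. KAT6B counts per kb of exon were 0.135 of those of KAT6A in untreated cells. The log2 ratio differed from untreated by 0.20, 0.26, 0.20 and 0.10 at the 4 doses, and exact permutation p lay from 0.2 to 0.5. Libraries of every dose overlapped the untreated ones.

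KAT6A held 175, 158 and 183 CPM in untreated libraries, 108, 115 and 133 CPM at 0.15 µM, and 142, 141 and 117 CPM at 0.25 µM. The values were 180, 191 and 157 CPM at 0.5 µM and 192, 161 and 205 CPM at 1 µM. Libraries of the 2 lower doses lay below the untreated range, and those of the 2 higher doses overlapped it. KAT6A fell at 0.15 µM (log2 -0.53 ± 0.14, adjusted p = 0.00425) and at 0.25 µM (-0.37 ± 0.14, adjusted p = 0.0325). Under library totals the first was -0.18 and the second turned to 0.15, and the values were -0.28 and 0.05 under TMM on genes of at least 10 CPM, none of them called. The second was not called with RLE size factors either. The second call was also lost without replicate 3 at 0.25 µM or replicate 1 or 3 of the untreated cells. Other fits that lost it were those with 2 other filters, of 2 groups and without replicate 3 at 0.25 and 0.5 µM.

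At 1 µM KAT6A stood at 0.11 ± 0.14 against untreated cells (adjusted p = 0.498) and was 1.57-fold higher than at 0.15 µM (log2 0.65 ± 0.14, adjusted p = 0.00112). The rise between 0.25 and 0.5 µM, 0.40 ± 0.14 (adjusted p = 0.0398), was lost in 15 of 24 alternatives, 11 of them fits without 1 library. With the replicate number as a block it was 0.40 (adjusted p = 0.0536), and 2 members rose in that step.

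KAT6B, the member with the lowest level per length, held 29.1, 32.3 and 31.9 CPM in untreated libraries and 24.3, 28.3 and 21.5 CPM at 0.15 µM. At 0.25 µM the values were 24.8, 29.6 and 32.5 CPM, at 0.5 µM 32.8, 35.7 and 41.6 CPM, and at 1 µM 36.7, 30.5 and 41.8 CPM. No dose passed the test against untreated cells, with log2 values of -0.33, -0.10, 0.24 and 0.22 (SE 0.16 each). KAT6B rose 1.47-fold from 0.15 to 1 µM (log2 0.56 ± 0.16, adjusted p = 0.00749), a call lost without replicate 3 at 1 µM.

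KAT7 held 88, 93.5 and 99.7 CPM in untreated libraries and 47.5, 64.4 and 47.7 CPM at 0.15 µM. At 0.25 µM the values were 41.8, 47.9 and 42.4 CPM, at 0.5 µM 45.4, 55.1 and 42.7 CPM, and at 1 µM 50.7, 43.6 and 51.4 CPM. Every treated library lay below the untreated range, and neighbouring doses overlapped. The log2 fold change was -0.82, -1.09, -0.97 and -0.95 at the 4 doses (SE 0.15 each, adjusted p = 0.00014, 3.91e-06, 1.16e-05 and 1.55e-05). KAT7 was called at each dose in all 24 alternatives, and between doses it did not pass the test.

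KAT5 held 33.9, 27.9 and 28.7 CPM in untreated libraries and 20.1, 19.9 and 22.9 CPM at 0.15 µM. At 0.25 µM the values were 17.7, 17 and 13.5 CPM, at 0.5 µM 19.3, 15 and 15.2 CPM, and at 1 µM 14.8, 17.1 and 13.8 CPM. No treated library reached the untreated range. The log2 fold change was -0.53, -0.91, -0.87 and -0.98 at the 4 doses (SE 0.16 each, adjusted p = 0.0103, 7.85e-05, 0.000104 and 2.84e-05). The call at 0.15 µM was lost under library totals and under TMM on genes of at least 10 CPM. It was also lost with at least 10 counts in every library and without replicate 1 of the untreated cells. Exons of a gene on the opposite strand cover 38.6% of the exon bases of KAT5, so its counts rest on the remainder where shared stretches were not counted.

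**Figure D4:**
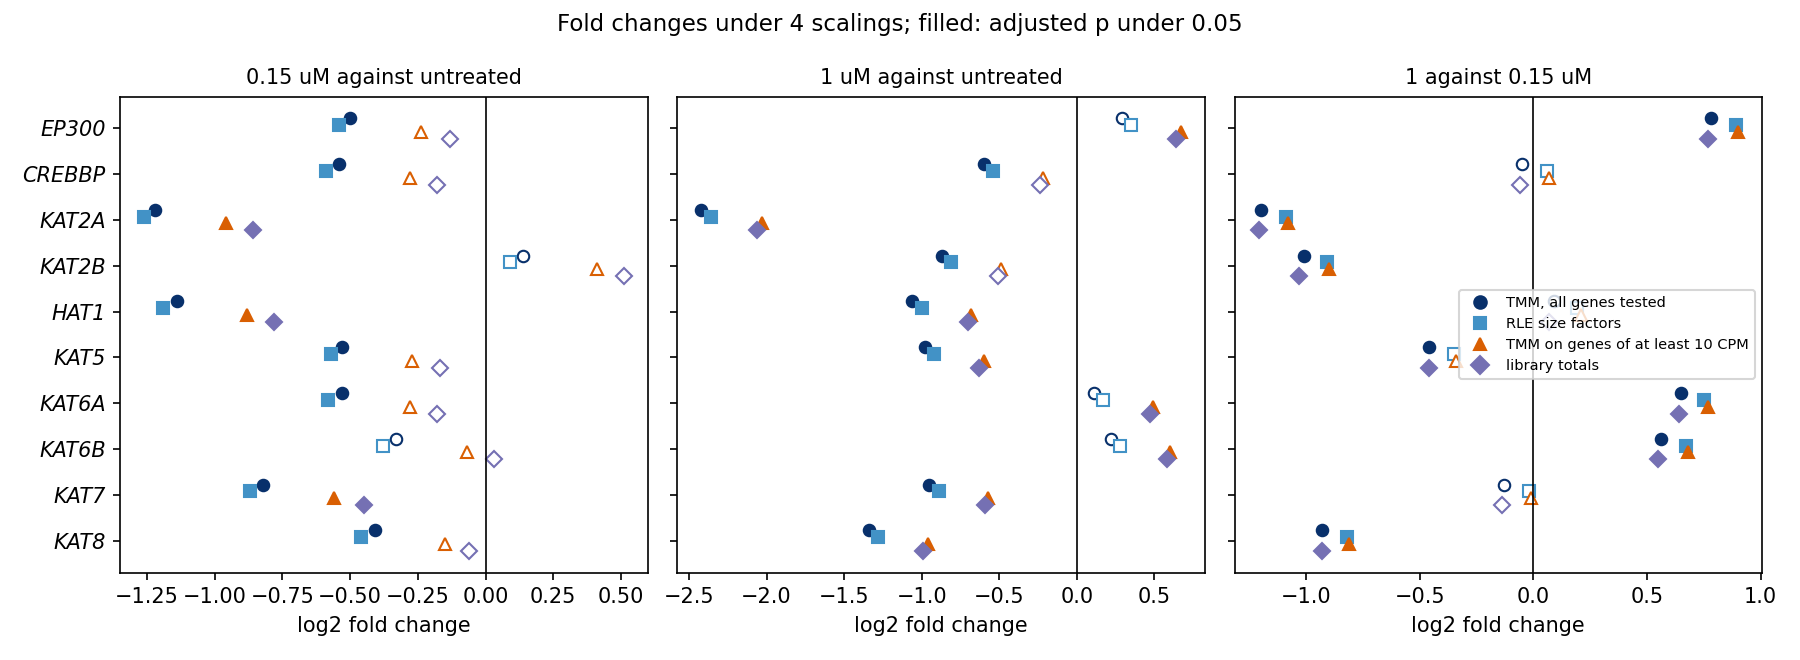
Log2 fold change of each member (x axis) under 4 scalings of the libraries, for 0.15 µM and 1 µM against untreated cells and 1 µM against 0.15 µM; filled symbols have an adjusted p under 0.05. The comparisons with untreated cells shift to the right under library totals, whereas EP300, KAT6A and KAT6B lie between 0.55 and 0.90 under every scaling at 1 µM against 0.15 µM.

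Levels between genes were compared per kb of exon, in untreated cells. KAT2A was highest at 33.3 ± 0.779 CPM per kb (SD, n = 3), followed by HAT1 at 22.5 ± 3.86. KAT8 at 12.1 and EP300 at 11.5 overlapped, and CREBBP followed at 10.1. KAT5 at 8.09, KAT6A at 7.12, KAT2B at 6.2 and KAT7 at 5.65 each overlapped their neighbour, and KAT6B was lowest at 0.957. With the length of the canonical transcript, an alternative chosen after the lengths were seen, HAT1 was highest at 93.6, above KAT8 at 46.2 and KAT2A at 40.4, and KAT6B remained lowest at 3.74.

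Of 9522 protein-coding genes outside the lists averaging 10 CPM or more, those most like KAT2A over the 15 libraries were PCSK6, MAGOHB and CHD3 (Pearson r of log2 CPM 0.987, 0.985 and 0.983). CHD3, a subunit of the NuRD deacetylase complex, averaged 194 CPM untreated and 29.2 CPM at 1 µM. Among those most like EP300, the member with the highest fold change at 1 µM, were VPS13D and NEDD4L (0.969 and 0.967). The points share the 5 dose groups and their scaling, so the correlations are descriptions of course only.

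The partners of these enzymes were described from 8 lists of 89 distinct genes, all of which passed the filter on low counts. At 1 µM, 59 fell and 10 rose, with a median log2 fold change of -0.80, and at 0.15 µM 48 fell and 5 rose, with a median of -0.50. These counts stand beside 27.5% lower and 38.8% higher of all genes tested at 1 µM, and 48.4% and 26.5% of genes averaging 10 CPM or more. At 0.15 µM the shares were 19.4% and 31.9% of all genes, and 40.2% and 21.1% of genes averaging 10 CPM or more. Under library totals 23 partners were lower at 0.15 µM. The shares at 1 µM also stand beside the count of each list below.

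Of 20 subunits of SAGA and ATAC, the complexes of KAT2A and KAT2B, 15 fell and 0 rose at 1 µM, with a median of -0.87. Under library totals and TMM on genes of at least 10 CPM, 13 were lower and 2 higher, with medians of -0.52 and -0.49. TADA1, a SAGA core subunit, averaged 46.4 ± 1.28 CPM untreated and 11.9 ± 0.231 CPM at 1 µM (SD, n = 3; log2 -1.96 ± 0.13, SE, adjusted p = 1.56e-10). WDR5, a scaffold that ATAC shares with NSL and with histone methyltransferases, fell by 1.73 on the log2 scale. The smallest falls called were those of DR1 (-0.60) and of TRRAP, the scaffold of SAGA and TIP60 (-0.51). The call of DR1 was lost under library totals and TMM on genes of at least 10 CPM. The call of TRRAP was lost under all 3 other scalings and without replicate 2 at 1 µM or replicate 2 or 3 of the untreated cells. It was also lost with DESeq2 and with at least 10 counts in every library.

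Among 17 subunits of the TIP60 complex around KAT5, 14 fell and 1 rose, with a median of -1.07. Under library totals and TMM on genes of at least 10 CPM, 9 were lower, with medians of -0.71 and -0.69. EPC1, a scaffold of the complex, averaged 31 ± 3.69 CPM untreated and 6.86 ± 1.31 CPM at 1 µM (log2 -2.17 ± 0.20, adjusted p = 1.97e-08), and MRGBP fell by 1.65. DMAP1 rose, from 47.8 ± 3.95 to 93.6 ± 0.789 CPM (log2 0.97 ± 0.16, adjusted p = 2.07e-05). The fall of BRD8, -0.39, was lost under all 3 other scalings and without replicate 2 at 1 µM or replicate 2 of the untreated cells. It was also lost with DESeq2 and with 2 other filters.

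The 9 scaffold subunits of the KAT6A, KAT6B and KAT7 complexes held 6 that fell and 1 that rose, with a median of -1.07, which was -0.71 under library totals and -0.69 under TMM on genes of at least 10 CPM. JADE2 averaged 45.3 ± 4.74 CPM untreated, 42.6 ± 0.961 at 0.15 µM and 9.25 ± 1.38 at 1 µM (log2 at 1 µM -2.29 ± 0.17, adjusted p = 1.18e-09). BRD1 fell by 2.13 and BRPF1, its paralog, by 0.60, a call lost under both of these scalings. ING4, a reader of methylated histone H3, rose from 8.82 ± 0.886 to 16.5 ± 5.73 CPM (log2 0.90 ± 0.21, adjusted p = 0.000833).

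MSL and NSL subunits, the partners of KAT8, fell in 10 of 11 genes with 0 higher, and the median was -1.05. Under library totals and TMM on genes of at least 10 CPM, 8 were lower, with medians of -0.69 and -0.66. MSL1, the scaffold of MSL, averaged 152 ± 5.15 CPM untreated and 32.5 ± 5.98 CPM at 1 µM (log2 -2.22 ± 0.16, adjusted p = 7.2e-10). MCRS1 fell by 1.81, and the smallest falls called were those of PHF20 (-0.54) and KANSL3 (-0.53). Both calls were lost under these 2 scalings and with at least 10 counts in every library.

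Of 8 partners of p300 and CBP, 3 were lower and 4 higher at 1 µM, with a median of 0.37. Over all genes tested, 27.5% were lower and 38.8% higher, with a median of 0.32. For genes averaging 10 CPM or more these values were 48.4%, 26.5% and -0.39. Of the 4 partners that were higher, 1 lay near the floor, at 0.0273 CPM untreated and 0.419 CPM at 1 µM. The list median was 0.73 under library totals and 0.75 under TMM on genes of at least 10 CPM, where 2 were lower. CITED4, which binds both enzymes, rose in every dose group, from 3.34 ± 0.755 CPM untreated to 15.8 ± 4.77 at 0.15 µM and 97.3 ± 10.5 CPM at 1 µM (29.1-fold at 1 µM, log2 4.86 ± 0.36, adjusted p = 9.31e-09). SERTAD1 rose 5.57-fold at 1 µM. MAML1, a Notch coactivator, fell by 1.03 and CREB1, the factor after which CBP is named, by 0.85.

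Of 6 partners of HAT1 and chaperones of H4, 5 fell and 1 rose at 1 µM. Of genes averaging 10 CPM or more, 48.4% were lower and 26.5% higher. NASP, a chaperone of H3 and H4, averaged 440 ± 30.9 CPM untreated and 125 ± 3.52 CPM at 1 µM (log2 -1.82 ± 0.15, adjusted p = 3.01e-09). RBBP4 fell by 1.28 and RBBP7, the subunit that binds HAT1, by 0.77. ASF1B, which hands H3 and H4 to assembly factors, rose to 183 ± 22.8 CPM from 87.1 ± 6.04 (log2 1.07 ± 0.30, adjusted p = 0.00607).

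Acetyl-CoA is the donor of the acetyl group. Of 7 genes of its supply, 3 fell and 2 rose, with a median of -0.34. Under library totals and TMM on genes of at least 10 CPM, 3 were lower and 3 higher, and the median turned to 0.02 and 0.05. ACSS1, the mitochondrial acetyl-CoA synthetase, averaged 42.4 ± 3.18 CPM untreated and 5.29 ± 0.552 CPM at 1 µM (8.02-fold lower, adjusted p = 2.29e-11), whereas ACSS2, the synthetase of cytosol and nucleus, rose 1.89-fold (log2 0.92 ± 0.15, adjusted p = 3.6e-05). DLAT, a subunit of pyruvate dehydrogenase, fell by 2.05, and CRAT, carnitine acetyltransferase, rose 7.07-fold.

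Of 14 other acetyltransferases, 6 fell and 1 rose at 1 µM, with a median of -0.16. Of genes averaging 10 CPM or more, 48.4% were lower and 26.5% higher, with a median of -0.39. Under library totals 4 of the 14 were lower and 4 higher, and under TMM on genes of at least 10 CPM 5 and 4. The list medians turned to 0.19 and 0.22 there. NAT10, which acetylates RNA, averaged 317 ± 19.4 CPM untreated and 58.2 ± 1.82 CPM at 1 µM (log2 -2.44 ± 0.14, adjusted p = 3.45e-11). GTF3C4 fell by 1.06 and ELP3, of the Elongator complex, by 0.74. NCOA3, a nuclear receptor coactivator, rose 2.09-fold.

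**Figure D5:**
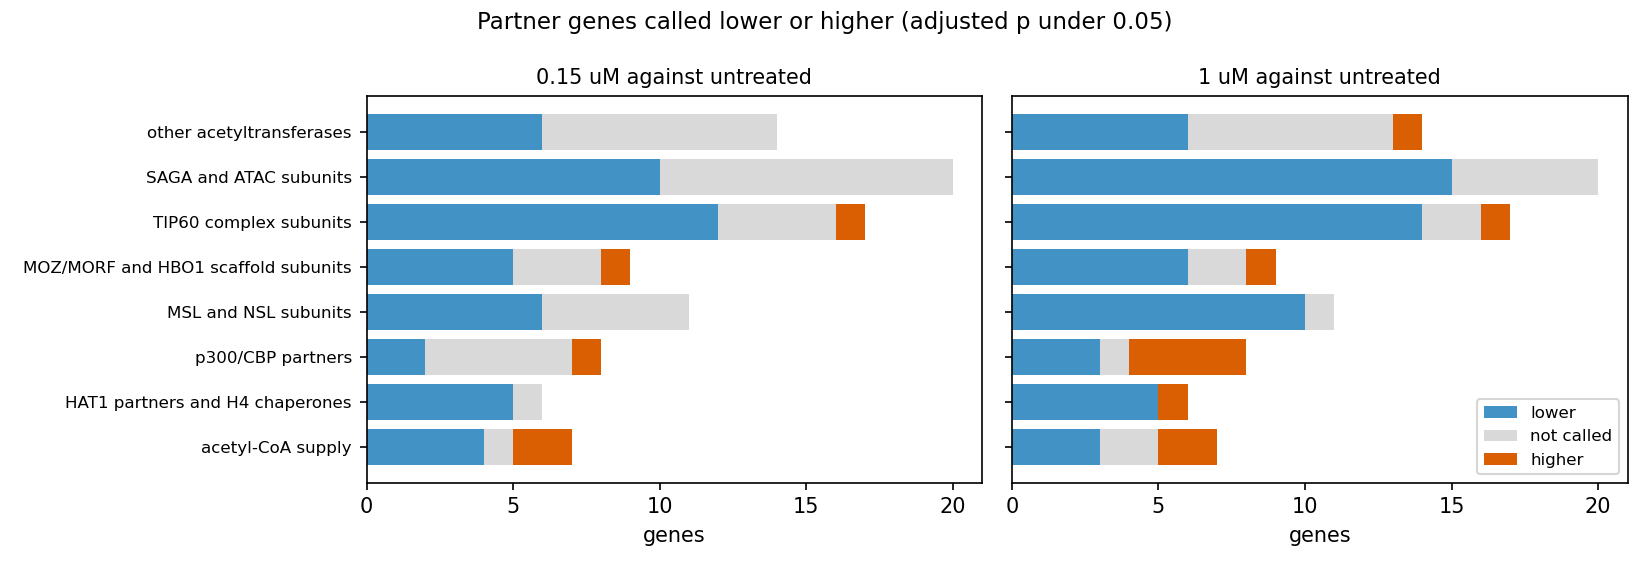
Number of genes (x axis) called lower, not called or called higher at an adjusted p under 0.05 in 8 lists of partner genes, at 0.15 µM and 1 µM against untreated cells. The SAGA and ATAC list and the MSL and NSL list hold 15 of 20 and 10 of 11 genes called lower at 1 µM, and the list of p300 and CBP partners holds 3 lower and 4 higher. Of all genes tested, 27.5% were lower and 38.8% higher at 1 µM, and of genes averaging 10 CPM or more 48.4% and 26.5%.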

How the data were processed

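The authors trimmed the reads (Trim Galore 0.6.10, Trimmomatic), aligned them to hg38 with HISAT2 2.2.1 and counted fragments per GENCODE gene with featureCounts 1.5.3, and deposited raw counts of 60649 genes. Their strand setting for counting is not given in the sources used here. The deposited FPKM tables, made by the authors, divide by a length equal to the genomic span in 94% of genes and served only for that check. Their versions come from the submitters' processing notes where those give one.

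One edgeR (4.0.16, R 4.3.3) fit covered all 15 libraries with group as the only term, with filterByExpr (23711 genes kept), TMM scaling, a quasi-likelihood F test and Benjamini-Hochberg adjustment over all genes tested. A gene was called at an adjusted p under 0.05. CPM are counts per 1000000 of TMM-scaled library size. The fit was tested on simulated counts in which few genes changed, as many up as down, at the highest dose only. That setting does not match the shifts of these data, so the test does not bear on scaling. Paralog ratios, with 0.5 added to each count, were compared by two-sided exact permutation tests (SciPy 1.17.1). Symbols (99.7% of identifiers matched), positions and exon lengths were read from a later release of GENCODE (hg38), where EP300 and KAT7 have another identifier version.

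Members and lists were chosen with earlier results of these data known. Named genes were all 10 members, of each list the 2 highest and 2 lowest log2 fold changes at 1 µM among genes called with a mean of at least 1 CPM, and the 3 genes most like the member with the largest rise and the largest fall. One gene that this rule names is not reported here. Replicate libraries of a group differed by more than sampling noise (chi-square per degree of freedom at least 4.43), so each counted once. The labels do not say that replicate numbers pair libraries. After subtraction of each group's mean, libraries that carry the same number correlated over genes at 0.266, 0.268 and 0.579 between 0.25 and 0.5 µM. Between other groups the values were 0.0918 or less. The main fit had group as its only term, so its test of this dose step did not pair these libraries. With the replicate number as a block, the call of KAT6A in this step was lost.

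Alternatives were DESeq2 1.42.0, 3 other scalings, 2 other filters, a replicate block, fits of 2 groups, each library left out in turn and, added after the data were seen, replicate 3 at 0.25 and 0.5 µM left out together. RefSeq held no promoter for KAT6A or KAT8 in the table used.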

Additional observations from a re-analysis of the deposited data

Results flagged for a closer look

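For 4 members the change against untreated cells had opposite signs at the lowest and the highest dose, and the difference between these doses passed the edgeR test over all genes. The log2 fold change at 1 µM minus that at 0.15 µM was 0.78 for EP300, 0.65 for KAT6A, 0.56 for KAT6B and -1.01 for KAT2B. EP300 and KAT6A were called lower at 0.15 µM and not called at 1 µM, KAT2B was called lower at 1 µM and not called at 0.15 µM, and KAT6B was called at neither. The difference between doses kept its direction and its call under all 24 alternatives for EP300, KAT6A and KAT2B, and under 23 for KAT6B.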

How the results depend on the processing

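Of 1680 values of members under alternatives, 1521 kept direction and side of the threshold, 95 lost a call, 36 gained one and 28 turned in sign, none of these 28 past the threshold with the new sign. The cause of these moves was not tested.

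Members lower at 0.15 µM numbered 3 under library totals, 3 under TMM on genes of at least 10 CPM and 4 with at least 10 counts in every library. Members higher at 0.25 µM numbered 1 under these 3, with no filter and in fits of 2 groups. Members higher at 0.5 µM numbered 3 under these 3, and 1 with DESeq2, RLE or fits of 2 groups, and at 1 µM 3 under these 3, 2 in fits of 2 groups and 1 without replicate 3 at 0.25 and 0.5 µM. From 0.15 to 0.25 µM, 0 members fell under library totals and 1 under RLE, TMM on genes of at least 10 CPM, at least 10 counts in every library and fits of 2 groups. From 0.25 to 0.5 µM, 1 member fell in fits of 2 groups and 1 rose under library totals.

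Partners lower at 0.15 µM numbered 23 under library totals. Partners higher at 0.15 µM numbered 11 under TMM on genes of at least 10 CPM, 10 with at least 10 counts in every library, 12 under library totals and 8 in fits of 2 groups, and at 1 µM 16 under TMM on genes of at least 10 CPM, library totals and fits of 2 groups.

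Of all genes, 2891 were lower at 0.15 µM and 3673 at 0.25 µM under TMM on genes of at least 10 CPM, and 2118 and 3067 under library totals. With at least 10 counts in every library, so that fewer genes were tested, 4090, 4689, 5126 and 4998 were higher in order of dose and 11139 differed over the 5 groups. From 0.15 to 0.25 µM, 1025 were lower under TMM on genes of at least 10 CPM, 986 under library totals and 964 in fits of 2 groups, and 2160 were higher with DESeq2 and 1882 under TMM on genes of at least 10 CPM. From 0.25 to 0.5 µM, 2227 were higher in fits of 2 groups.

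Signs turned for EP300 at 0.25 µM (0.15, 0.02 and 0.26 under TMM on genes of at least 10 CPM, at least 10 counts in every library and library totals), for KAT6B at 0.25 µM under the same (0.32, 0.19 and 0.44) and at 0.15 µM under library totals (0.03), and for KAT6A at 0.25 µM (0.05 under TMM on genes of at least 10 CPM and 0.15 under library totals). CREBBP at 1 against 0.15 µM was 0.06 with DESeq2 and RLE, 0.07 under TMM on genes of at least 10 CPM and 0.05 with at least 10 counts in every library. From 0.25 to 0.5 µM, library totals gave -0.11 for CREBBP, -0.10 for KAT5 and -0.04 for KAT7, and leaving out replicate 3 of both groups gave 0.00 for KAT5.

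With 1 library left out, members called higher lay from 0 to 1 at 0.25, 0.5 and 1 µM each, members that fell from 1 to 3 in both the first and the second dose step, and all genes from 969 to 2435 lower and 659 to 1587 higher in the first step. Values that turned in sign lay from -0.05 to 0.19 for CREBBP, -0.09 to 0.11 for KAT5 and 0.00 to 0.19 for KAT7 from 0.25 to 0.5 µM, from -0.15 to 0.09 for CREBBP and -0.21 to 0.02 for KAT7 at 1 against 0.15 µM, from -0.03 to 0.35 for KAT2B at 0.15 µM, from -0.03 to 0.11 for KAT6A at 0.5 µM, and from -0.08 to 0.01 for the log2 ratio of CREBBP to EP300 at 0.15 µM.

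With a replicate block, members lower were 8, 7, 7 and 7 in order of dose with 0 higher, and no call of a member changed other than that of KAT6A from 0.25 to 0.5 µM. Paired sign-flip tests of the paralog ratios cannot go below an exact p of 0.25, which 8 of the 12 gave.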
